A study of Mus musculus with 5 samples.

Results

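The touch and proprioceptor transcription factors described here are a list of 8 named genes, of which 7 were among the 17267 mouse genes of the count matrix: Etv1, Shox2, Esrrg, Esrrb, Maf, Zfp521 and Foxp2. They were matched by gene symbol, and Mafa, the remaining gene, was not analysed here. Touch and the sense of limb position are carried by sensory neurons of the dorsal root ganglion (DRG), whose fates are set by transcription factors that act in combination. Proprioceptors innervate muscle spindles and tendon organs and contain parvalbumin, low-threshold mechanoreceptors with A-fibres innervate hair follicles and skin corpuscles, and C-fibre mechanoreceptors of hairy skin contain tyrosine hydroxylase. Peptidergic and non-peptidergic neurons mostly serve pain, itch and temperature.

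Single cells came from lumbar DRG of 5 adult, untreated, wild-type C57BL/6 mice of both sexes, which form 1 group, and were captured with the Chromium 3′ assay, in which a unique molecular identifier (UMI) tags each captured transcript. The cell names hold 5 identifiers, each treated as 1 library of 1 mouse, and the numbers 1 to 5 given to them are names that do not follow the sample labels. Libraries 1 to 5 held 164, 539, 474, 805 and 1370 cells with 13050375, 42666954, 28667742, 51281229 and 88886919 UMIs. The 3352 cells carried the deposited names of 14 types, of which 12 were neuronal: 3 neurofilament (NF), 5 peptidergic (PEP), 3 non-peptidergic (NP) and 1 named Th, beside satellite glia and endothelial cells. UMIs of each gene were summed over the cells of a type in a library and scaled to CPM, the count per 10⁶ UMIs of the same sum, so that libraries and not cells are the replicates, and means are given ± SD over n = 5 libraries. The sums of the neurofilament types rested on few cells. NF2_Ntrk2.Necab2 had 3, 6, 5, 17 and 27 cells in libraries 1 to 5. NF_Pvalb had 6, 13, 12, 24 and 58, and NF_Calb1 had 16, 29, 44, 24 and 67. Endothelial cells (3, 16, 16, 14 and 7) and NP_Mrgpra3 cells (4, 10, 11, 28 and 51) were also few, and PEP1_Dcn had 4 in library 1. In all, 7 barcode sequences occurred in more than 1 library.

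The type names were checked against marker genes. Summed over Pvalb, Ntrk3, Runx3, Spp1 and Whrn, the NF_Pvalb cells held 4063 ± 382 CPM, against 608 ± 126 CPM in NF_Calb1 and 71.4 ± 24.0 CPM in NF2_Ntrk2.Necab2. Most of that sum was Pvalb, at 2773 ± 321 CPM in NF_Pvalb, while Ntrk3 went the other way, at 341 ± 75.6 CPM in NF_Calb1 and 173 ± 23.8 CPM in NF_Pvalb. Calb1, the calcium-binding protein in the name of NF_Calb1, was highest there at 208 ± 89.9 CPM, but PEP3_Trpm8 held 142 ± 107 CPM. Ntrk2, which encodes the neurotrophin receptor TrkB, was highest in NF2_Ntrk2.Necab2 at 756 ± 113 CPM, and satellite glia held 579 ± 55.9 CPM. The marker lists of NF_Calb1 (Calb1, Nefh and Ret) and NF2_Ntrk2.Necab2 (Ntrk2, Necab2 and Nefh) did not mark these types by their sums, of which Nefh, a neurofilament gene, was the largest part. The first summed to 5955 ± 924 CPM in NF_Calb1, close to the 5582 ± 1039 CPM in NF_Pvalb, and the second to 2732 ± 228 CPM in NF2_Ntrk2.Necab2, below the 5495 ± 796 CPM in NF_Calb1 and 5557 ± 1038 CPM in NF_Pvalb. Nefh alone was at 1772 ± 135 CPM in NF2_Ntrk2.Necab2, 5351 ± 812 CPM in NF_Calb1 and 5533 ± 1039 CPM in NF_Pvalb. Tyrosine hydroxylase itself, Th, was highest in the Th type at 747 ± 178 CPM. The 5 neuron markers summed to 7755 ± 594 CPM in NF_Pvalb and to 369.6 ± 157 CPM in satellite glia, and the 5 satellite glia markers, led by Apoe, to 90180.1 ± 10409.9 CPM in glia, 173 ± 144 CPM in NF_Calb1 and 121 ± 105 CPM in NF_Pvalb. Endothelial cells held 6484 ± 1244 CPM of their own 5 markers, but also glial markers at 4519 ± 5732 CPM, from 551 to 14210 CPM over the libraries. The 4 Schwann cell markers summed to 1503 ± 366 CPM in satellite glia and to 1739 ± 249 CPM in Th, where most came from Pmp22 (1531 CPM). The 5 fibroblast markers summed to 434 ± 328 CPM in glia and 539 ± 284 CPM in PEP1_Dcn, where nearly all came from Dcn, the name gene of that type (538 CPM). The 5 macrophage markers summed to 29.0 ± 15.4 CPM in glia and 60.4 ± 57.1 CPM in endothelial cells. Levels in satellite glia and endothelial cells also rest on less depth, with a median of 17729 and 16889 UMIs per cell, against 66720 in NF_Pvalb, 77900 in NF_Calb1 and 96530.5 in NF2_Ntrk2.Necab2.

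In the GRCm38 annotation (GENCODE vM21), Etv1 lies at chr12:38779380-38870484 and Esrrb at chr12:86361117-86521628 on the plus strand, Esrrg at chr1:187608791-188214885 and Foxp2 at chr6:14901349-15441977 on the plus strand, and Shox2 at chr3:66971727-66981771, Maf at chr8:115682942-115707794 and Zfp521 at chr18:13687013-13972787 on the minus strand. The chromosome and strand in the matrix are the same for each of the 7. Shox2 overlaps Rsrc1, a protein-coding gene on the opposite strand, while Maf and Esrrg overlap antisense transcripts. Whether the counting used strand is not given in the sources used here, so reads of these 3 genes and of their partners may not have been told apart. Esrrg, Zfp521 and Foxp2 also overlap features on the same strand (Gm38315, AC104328.1 and Gm25470), which strand could not separate. Rsrc1 ran from 46.0 ± 13.1 CPM in satellite glia to 157 ± 29.2 CPM in NF_Pvalb, a narrower range than that of Shox2 below.

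Each type was first set against all other cells of the same libraries, to ask in which types a member stands above the sum of the other cells. NP_Mrgprd alone held 92245664 of the 224553219 UMIs, so for every other type this comparison leans on NP_Mrgprd. A gene was called where edgeR's quasi-likelihood test gave an adjusted p under 0.01, the type was at least 2-fold higher and at least 25% of its cells had a UMI. Because the types were clustered by the authors from these same counts, a call describes how a gene is spread over the types and is not independent evidence of a difference. Of the 6 members tested in every type, NF_Pvalb had 4 called (Etv1, Shox2, Esrrg and Zfp521, the last just above the 2-fold limit), where 12.4% of all 12045 genes tested were called. NF_Calb1 had 3 of 6 (Shox2, Esrrg and Maf) beside a background of 13.4%, and NF2_Ntrk2.Necab2 had 1 of 6 (Shox2) beside 7.71%. In PEP3_Trpm8, 2 of 6 were called (Zfp521 and Foxp2; background 5.32%). A single member was called in Th (Zfp521; 5.93%), in NP_Nts (Etv1; 4.88%), in NP_Mrgpra3 (Etv1; 2.96%), in PEP2_Htr3a.Sema5a (Maf; 7.64%) and in satellite glia (Maf; 14.8%).

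No member was called by edgeR in the other 5 types, where the background was 15.2% in endothelial cells, 4.72% in NP_Mrgprd, 5.48% in PEP1_Dcn, 3.28% in PEP1_S100a11.Tagln2 and 4.98% in PEP1_Slc7a3.Sstr2. In these 5 types, DESeq2 also called 0, and 0 members were higher at an unadjusted p under 0.05. The median log2 fold change over the 6 members tested in every type was 2.12 in NF_Pvalb, where that of all genes was -0.07, and 1.33 in NF_Calb1, where it was -0.03. The members' median was 0.59 in NF2_Ntrk2.Necab2 (all genes -0.07) and below 0 in every remaining type. Those medians ran from -0.71 in satellite glia (all genes -0.35) to -5.80 in NP_Mrgprd (all genes -0.10). Of the 7 members, 6 passed the filter on low counts in each of the 14 types, and Esrrb, which is left out of these counts and medians, passed in 2 (NF_Pvalb and NP_Mrgprd). It was tested in NF_Pvalb because it is detected there, so its value below is from the fit without that filter.

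Etv1 (ER81) is an ETS-family factor that proprioceptive afferents need to reach motor neurons in the spinal cord. It was the member with the most UMIs, 16101, found in 44.7% of all cells. Its level in NF_Pvalb was 397, 561, 436, 467 and 578 CPM in libraries 1 to 5, with a mean of 488 ± 78.9 CPM, against 52.4 ± 16.2 CPM in all other cells (n = 5). The next type was a non-peptidergic one, NP_Nts, at 341, 294, 297, 357 and 313 CPM, so the lowest NF_Pvalb library was above the highest NP_Nts library and the groups did not overlap. Within libraries, NF_Pvalb exceeded NP_Nts by 0.59 ± 0.309 on the log2(CPM + 1) scale in 5 of 5 libraries (exact two-sided sign-flip p = 0.0625, the smallest that 5 libraries allow). The order of types comes from the same 5 libraries, and the sign-flip p-values here and below do not allow for that choice. They describe the step between neighbours and are not independent evidence of it. NP_Mrgpra3, a type of itch neurons, followed at 223 ± 8.73 CPM, then PEP1_S100a11.Tagln2 at 79.0 ± 15.3 CPM, satellite glia at 52.6 ± 18.9 CPM and NF_Calb1 at 45.9 ± 23.2 CPM. The first 4 steps of this order exceeded the spread over libraries, whereas the next 2, from satellite glia to NF_Calb1 and from NF_Calb1 to PEP1_Dcn (27.0 CPM), did not. In NF_Calb1, library 1 stood low at 8.60 CPM, while the others held 45.7 to 72.2 CPM. Against the other cells, NF_Pvalb had a log2 fold change of 3.20 (SE 0.205, adjusted p = 4.34e-09) by edgeR. It was 2.86 (SE 0.114, adjusted p = 1.24e-10) in NP_Nts. In NP_Mrgpra3 it was 2.05 (SE 0.166, adjusted p = 2.03e-07), and each of these 3 types was above the other cells in 5 of 5 libraries. Etv1 was lowest in the Th type, at 1.44 ± 1.21 CPM, and reached 13.8 ± 6.94 CPM in NF2_Ntrk2.Necab2, so it did not follow the neurofilament class as a whole.

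Shox2, a homeodomain factor needed for the formation of TrkB-positive touch neurons, was spread over the 3 neurofilament types. NF_Pvalb held 109, 278, 252, 283 and 279 CPM in libraries 1 to 5. NF_Calb1 held 69.5, 68.8, 96.7, 82.2 and 107 CPM and NF2_Ntrk2.Necab2 86.0, 70.4, 48.7, 56.0 and 56.0 CPM. Library 1 was low in NF_Pvalb, and its value there was just above the highest NF_Calb1 library, so these groups came close without overlapping, whereas NF_Calb1 and NF2_Ntrk2.Necab2 did overlap. The means were 240.2 ± 74.2 CPM, 84.9 ± 16.9 CPM and 63.4 ± 14.9 CPM, beside 10.2 ± 5.88 CPM in PEP3_Trpm8, the next type. NF_Pvalb exceeded NF_Calb1 by 1.43 ± 0.515 on the log2(CPM + 1) scale, in 5 of 5 libraries (exact sign-flip p = 0.0625). NF_Calb1 exceeded NF2_Ntrk2.Necab2 in only 3 of 5 libraries, by 0.42 ± 0.571, which is within the spread. All 3 types were above the other cells in edgeR's test and in 5 of 5 libraries. For NF_Pvalb the test gave a log2 fold change of 4.63 (SE 0.279, adjusted p = 2.35e-09). For NF_Calb1 it gave 2.75 (SE 0.179, adjusted p = 9.41e-09), and for NF2_Ntrk2.Necab2 1.92 (SE 0.197, adjusted p = 9.90e-07). Highest Shox2 was thus in the type with parvalbumin, not in the type named for Ntrk2. Outside the neurofilament types, NP_Nts held 5.87 ± 2.16 CPM and satellite glia 3.34 ± 1.51 CPM, and endothelial cells held 0 UMIs, which allows up to 3.19 CPM.

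Esrrg and Esrrb encode oestrogen-related receptors, orphan nuclear receptors that bind DNA without a hormone and act on genes of mitochondrial energy supply. Esrrg ranked the 3 neurofilament types as Shox2 did, with wider steps. Libraries 1 to 5 held 59.4, 79.0, 57.1, 65.4 and 88.9 CPM in NF_Pvalb. They held 20.1, 15.3, 11.2, 15.8 and 11.4 CPM in NF_Calb1 and 14.3, 5.41, 4.87, 5.27 and 8.78 CPM in NF2_Ntrk2.Necab2. All 5 NF_Pvalb libraries were above all NF_Calb1 libraries, while library 1 of NF2_Ntrk2.Necab2, which rests on 3 cells, reached into the range of NF_Calb1. The means were 70.0 ± 13.6 CPM in NF_Pvalb, 14.8 ± 3.65 CPM in NF_Calb1 and 7.74 ± 4.01 CPM in NF2_Ntrk2.Necab2. The differences within libraries were 2.18 ± 0.488 between NF_Pvalb and NF_Calb1 and 0.93 ± 0.500 between NF_Calb1 and NF2_Ntrk2.Necab2 on the log2(CPM + 1) scale, both in 5 of 5 libraries (exact sign-flip p = 0.0625 each). Every other type was at or below 0.433 CPM, the mean in PEP2_Htr3a.Sema5a, with 0 UMIs in the Th type (up to 0.216 CPM) and in endothelial cells (up to 3.19 CPM). Against the other cells, Esrrg in NF_Pvalb had a log2 fold change of 5.71 (SE 0.257, adjusted p = 1.53e-10) and in NF_Calb1 one of 2.20 (SE 0.212, adjusted p = 4.76e-07). In NF2_Ntrk2.Necab2 the log2 fold change was 0.99 (SE 0.288, adjusted p = 0.00959) by edgeR, just under the 2-fold limit, so it was not called. With the library as a block it was 1.01 and was called.

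Esrrb was the scarcest member, with 110 UMIs in 84 cells. Of these, 73 UMIs in 49 cells were in NF_Pvalb, which held 9.59, 10.9, 9.24, 4.98 and 11.6 CPM in libraries 1 to 5. Library 4 was the lowest of them and was still above every library of another type, the highest of which was 2.64 CPM in NF2_Ntrk2.Necab2. The means were 9.25 ± 2.57 CPM in NF_Pvalb, 1.29 ± 1.23 CPM in NF2_Ntrk2.Necab2, 0.881 ± 0.213 CPM in NF_Calb1 and 0.755 ± 0.531 CPM in the Th type. NF_Pvalb exceeded NF2_Ntrk2.Necab2 by 2.32 ± 1.12 on the log2(CPM + 1) scale in 5 of 5 libraries (exact sign-flip p = 0.0625), while the steps from NF2_Ntrk2.Necab2 to NF_Calb1 and from NF_Calb1 to Th were within the spread. In the fit without the filter on low counts, Esrrb in NF_Pvalb had a log2 fold change of 5.59 (SE 0.351, adjusted p = 7.80e-10) against the other cells, where 0.176 ± 0.0416 CPM were left. In 6 types no Esrrb UMI was found, among them NP_Nts with its 21310364 UMIs, which allows up to 0.141 CPM there.

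Maf (c-Maf), a leucine-zipper factor required for rapidly adapting mechanoreceptors and their skin endings, had a different distribution. NF_Calb1 held 45.8, 70.5, 62.6, 49.3 and 44.4 CPM in libraries 1 to 5 and satellite glia 65.6, 53.4, 44.4, 60.2 and 34.7 CPM. The ranges of these groups overlapped, and NF_Calb1 was the higher in 3 of 5 libraries, with a mean difference of 0.09 ± 0.451 on the log2(CPM + 1) scale (exact sign-flip p = 0.688). The leading type of Maf was thus not above satellite glia in every library. PEP2_Htr3a.Sema5a followed at 19.4 ± 2.64 CPM, endothelial cells at 15.2 ± 11.4 CPM, NF2_Ntrk2.Necab2 at 15.1 ± 8.21 CPM and NF_Pvalb at 13.6 ± 4.69 CPM, and no step from 1 of these 4 to the next exceeded the spread. All remaining types were at or below 2.25 ± 1.17 CPM (PEP1_S100a11.Tagln2), a step that exceeded the spread. By edgeR, NF_Calb1 had a log2 fold change of 3.49 (SE 0.218, adjusted p = 6.50e-09) against the other cells. Satellite glia had 2.97 (SE 0.293, adjusted p = 7.83e-08) and PEP2_Htr3a.Sema5a 1.30 (SE 0.281, adjusted p = 0.00136), and all 3 types were above the other cells in 5 of 5 libraries. The neuron markers in satellite glia came to 369.6 ± 157 CPM and glial markers in NF_Calb1 to 173 ± 144 CPM, each a small part of the level in the other type, and their part in the Maf levels was not tested.

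Zfp521, a zinc-finger factor related to Zfp423 that acts in neural and blood cell differentiation, was highest in the Th type. There it held 183, 188, 150.0, 239.7 and 202 CPM in libraries 1 to 5, and in PEP3_Trpm8, the next type, 63.1, 79.2, 73.4, 91.2 and 84.0 CPM. All Th libraries were above all PEP3_Trpm8 libraries, with a difference of 1.28 ± 0.187 on the log2(CPM + 1) scale in 5 of 5 libraries (exact sign-flip p = 0.0625). The neurofilament types came next, NF_Pvalb at 42.2 ± 4.78 CPM, NF2_Ntrk2.Necab2 at 31.9 ± 7.88 CPM and NF_Calb1 at 30.3 ± 7.64 CPM, of which the last pair did not differ beyond the spread, and satellite glia held 9.14 ± 3.57 CPM. In the 3 NP types the means were between 0.346 and 0.551 CPM. The Th type had a log2 fold change of 4.57 (SE 0.156, adjusted p = 3.85e-11) against the other cells by edgeR. PEP3_Trpm8 had one of 2.06 (SE 0.182, adjusted p = 3.10e-07), and both were higher in 5 of 5 libraries. The call in NF_Pvalb, 1.04 (SE 0.185, adjusted p = 0.000171), lay just above the 2-fold limit and fell below it with DESeq2 (0.96), with RLE factors (0.97), without the filter on low counts (0.96), and without library 4 (0.98) or library 5 (0.86).

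Foxp2, a forkhead repressor best known from circuits of vocal and motor learning, went against the name of the set. It was high in PEP3_Trpm8, the type named for the cold and menthol receptor, with 99.1, 68.9, 114, 97.3 and 116 CPM in libraries 1 to 5 and a mean of 99.0 ± 18.8 CPM. Library 2 was the lowest of them, and the highest library of any other type was 10.3 CPM in PEP1_Dcn, so the groups were far apart. Of the 627 Foxp2 UMIs, 88.5% were in PEP3_Trpm8. The difference from satellite glia, the next type at 4.78 ± 4.41 CPM, was 4.56 ± 1.5 on the log2(CPM + 1) scale (5 of 5 libraries, exact sign-flip p = 0.0625), and PEP3_Trpm8 had a log2 fold change of 8.20 (SE 0.233, adjusted p = 9.32e-12) by edgeR. The touch and proprioceptor types held 1.47 ± 1.72 CPM in NF_Pvalb, 0.236 ± 0.293 CPM in NF_Calb1, 0.132 ± 0.295 CPM in NF2_Ntrk2.Necab2 and 0.114 ± 0.162 CPM in Th. After PEP3_Trpm8, no neighbours in the order of types differed beyond their spread, and NP_Nts held 0 UMIs (up to 0.141 CPM).

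**Figure D1:**
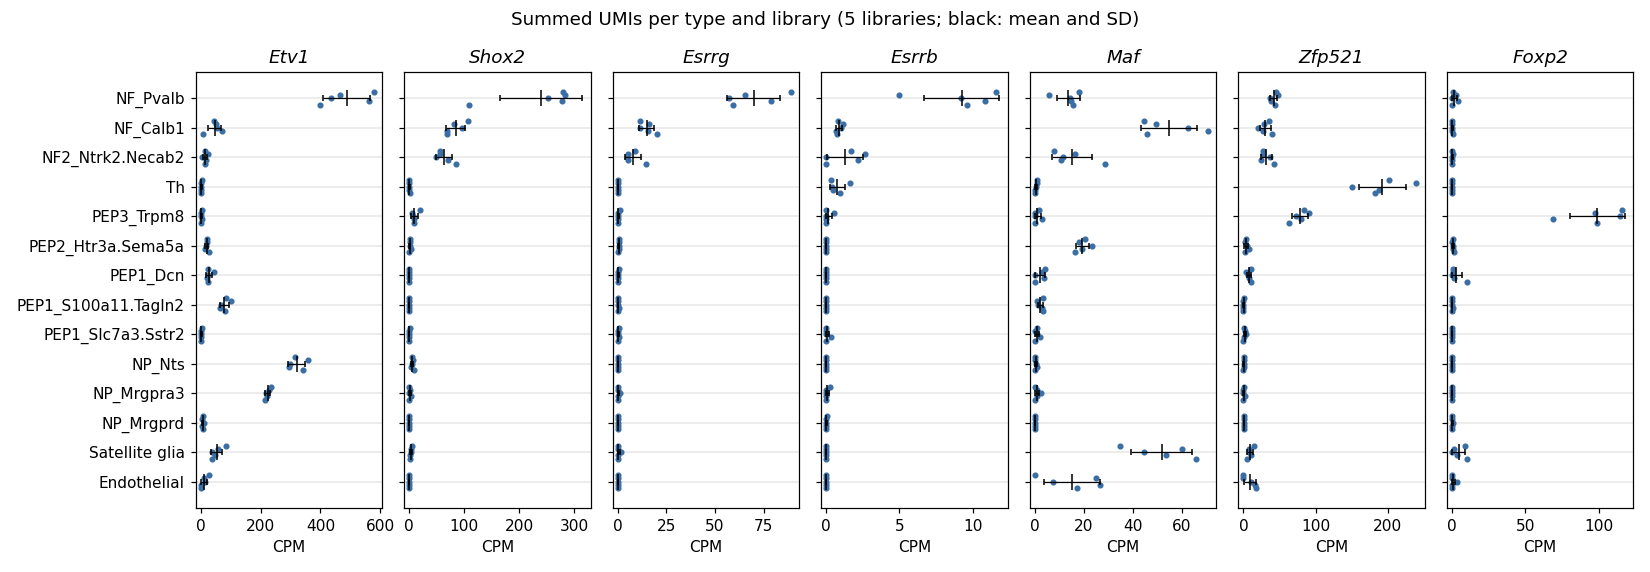
CPM of the 7 members (x axes, linear, 1 scale per gene) in the 14 types (y axis). Points are the 5 libraries and black marks the mean and SD; Etv1, Shox2, Esrrg and Esrrb lead in NF_Pvalb, Maf in NF_Calb1 and satellite glia, Zfp521 in Th and Foxp2 in PEP3_Trpm8, where its libraries lie between 68.9 and 116 CPM.

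The 3 neurofilament types and Th were then compared pairwise, in 1 joint edgeR fit of the 70 sums, to ask which members separate proprioceptor-like from touch types, with a call in either direction at an adjusted p under 0.01 and a 2-fold difference. Esrrb did not pass the filter of that fit, so 6 members were tested. Between NF_Pvalb and NF_Calb1, 4 of 6 were called (3 higher and 1 lower in NF_Pvalb), where 11.6% of the 11886 genes tested were called. Etv1 was higher in NF_Pvalb by a log2 difference of 3.40 (SE 0.242, adjusted p = 1.29e-19). Esrrg was higher by 2.37 (SE 0.214, adjusted p = 2.08e-14) and Shox2 by 1.56 (SE 0.184, adjusted p = 1.55e-10). Maf fell the other way, at -1.94 (SE 0.258, adjusted p = 3.91e-09), with 13.6 CPM in NF_Pvalb and 54.5 CPM in NF_Calb1. Zfp521 differed by 0.56 (SE 0.204, adjusted p = 0.0315) and was not called. Foxp2 differed by 2.67 (SE 0.885, adjusted p = 0.0164), from 11 against 3 UMIs, and was called only without library 1, by edgeR at 3.20, or with the limit at an adjusted p of 0.05. In the edgeR fit without the filter on low counts, Esrrb was higher in NF_Pvalb by 3.36 and was called, and it is not part of the count of members. The median log2 difference of the 6 was 1.96, and that of all genes -0.03.

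Between NF_Pvalb and NF2_Ntrk2.Necab2, 3 of 6 members were called, all higher in NF_Pvalb (background 18.4%). Etv1 showed the widest step, a log2 difference of 5.00 (SE 0.303, adjusted p = 1.95e-23) in edgeR's joint fit. Esrrg followed at 3.28 (SE 0.271, adjusted p = 2.95e-16) and Shox2 at 1.98 (SE 0.206, adjusted p = 1.04e-12). Maf differed by 0.10 (SE 0.336, adjusted p = 0.876), and turned to -0.44 without library 5. Without the filter on low counts, Esrrb was higher in NF_Pvalb by 2.31 and was called. Between NF2_Ntrk2.Necab2 and NF_Calb1, 2 of 6 were called, both lower in NF2_Ntrk2.Necab2 (background 12.5%): Etv1 at -1.59 (SE 0.316, adjusted p = 3.82e-05) and Maf at -2.04 (SE 0.282, adjusted p = 1.35e-08). Shox2 differed by -0.43 (SE 0.206, adjusted p = 0.107) and Esrrg by -0.91 (SE 0.295, adjusted p = 0.0128) there, which did not pass. These 3 comparisons share their types, so their values are given side by side and not counted together.

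NF2_Ntrk2.Necab2 and Th, an A-fibre and a C-fibre touch type, differed in 5 of 6 members, 4 higher and 1 lower in NF2_Ntrk2.Necab2, in a comparison where 20.3% of all genes were called. Shox2 had a log2 difference of 6.06 (SE 0.363, adjusted p = 5.20e-23) by edgeR. For Maf it was 4.54 (SE 0.528, adjusted p = 2.95e-11) and for Etv1 3.40 (SE 0.503, adjusted p = 3.99e-08). Esrrg was at 0 UMIs in Th, so no exact difference can be given. Its mean of 7.74 CPM in NF2_Ntrk2.Necab2 was 35.9-fold the 0.216 CPM that 3 UMIs over all Th cells would give. Library 1, at 14.3 CPM from 3 cells, raises that mean, and the median was 5.41 CPM, so 35.9-fold is not a strict lower limit. Zfp521 went the other way, with a log2 difference of -2.70 (SE 0.209, adjusted p = 2.80e-18). In a fit of these 2 types alone, Etv1 and Esrrg did not pass the filter on low counts and 3 members were called.

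To compare how many cells carry each gene, every cell was thinned at random to 10000 UMIs, since types differ in depth and free RNA in droplets can give a cell UMIs of genes it does not express; no cell was shallower than that. Satellite glia and endothelial cells are given beside the neuron types, at their own median depths of 17729 and 16889 UMIs before thinning, and intervals are exact Clopper-Pearson intervals, which cover counting error only. Etv1 was found in 99.1% (112 of 113 cells, 95% interval 95.2 to 99.98%) of NF_Pvalb cells, in 93.8% of NP_Nts and in 85.6% of NP_Mrgpra3, against 36.1% of satellite glia and 10.7% of endothelial cells. Since glia hold Etv1, the Th type, with 2.16% (median 56281 UMIs per cell), serves as its background. The Etv1 share in NF_Calb1 was 28.9% (52 of 180 cells, 95% interval 22.4 to 36.1%), and its interval overlapped that of glia (30.2 to 42.4%). Th had the lowest mean Etv1 level of all types, so a share above that of Th follows from this choice. Shox2 was found in 87.6% (99 of 113 cells, 95% interval 80.1 to 93.1%) of NF_Pvalb, 47.2% of NF_Calb1 and 37.9% of NF2_Ntrk2.Necab2 cells, against 3.61% of glia. Esrrg reached 54.0% (61 of 113 cells, 95% interval 44.4 to 63.4%) in NF_Pvalb, 14.4% in NF_Calb1 and 3.45% in NF2_Ntrk2.Necab2, against 0.402% in glia. Esrrb, at 10.6% (12 of 113 cells, 95% interval 5.61 to 17.8%) in NF_Pvalb, was found in 0 of 249 glia (exact interval up to 1.47%). At full depth these shares in NF_Pvalb were 100% for Etv1, 99.1% for Shox2, 95.6% for Esrrg and 43.4% for Esrrb. For Shox2 the order of NF_Calb1 and NF2_Ntrk2.Necab2 turned at full depth, at 70.0% (126 of 180 cells) and 96.6% (56 of 58 cells). Cells with a Shox2 UMI held a median of 8 such UMIs in NF_Calb1 and 5 in NF2_Ntrk2.Necab2.

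For Maf, as for Etv1, glia are not a type that lacks the gene: the thinned share was 39.0% (97 of 249 cells, 95% interval 32.9 to 45.3%) in satellite glia and 35.6% (64 of 180 cells, 95% interval 28.6 to 43.0%) in NF_Calb1, with intervals that overlap, and 16.5% in PEP2_Htr3a.Sema5a. NP_Nts, with 0 of 400 cells (exact interval up to 0.918%), serves as its background (median 53136 UMIs per cell). Zfp521 was found in 83.6% (194 of 232 cells, 95% interval 78.2 to 88.1%) of Th cells and 46.4% of PEP3_Trpm8, then in 33.6% of NF_Pvalb, 27.8% of NF_Calb1 and 25.9% of NF2_Ntrk2.Necab2, against 9.64% of glia. Foxp2 was found in 59.5% (100 of 168 cells, 95% interval 51.7 to 67.0%) of PEP3_Trpm8 and in 2.81% of glia, with 0 of 232 Th cells (exact interval up to 1.58%). At full depth, Zfp521 had a UMI in 100% of Th cells, and Foxp2 in 85.7% of PEP3_Trpm8 cells, although PEP3_Trpm8 was the shallowest neuron type (median 30800.5 UMIs per cell).

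**Figure D2:**
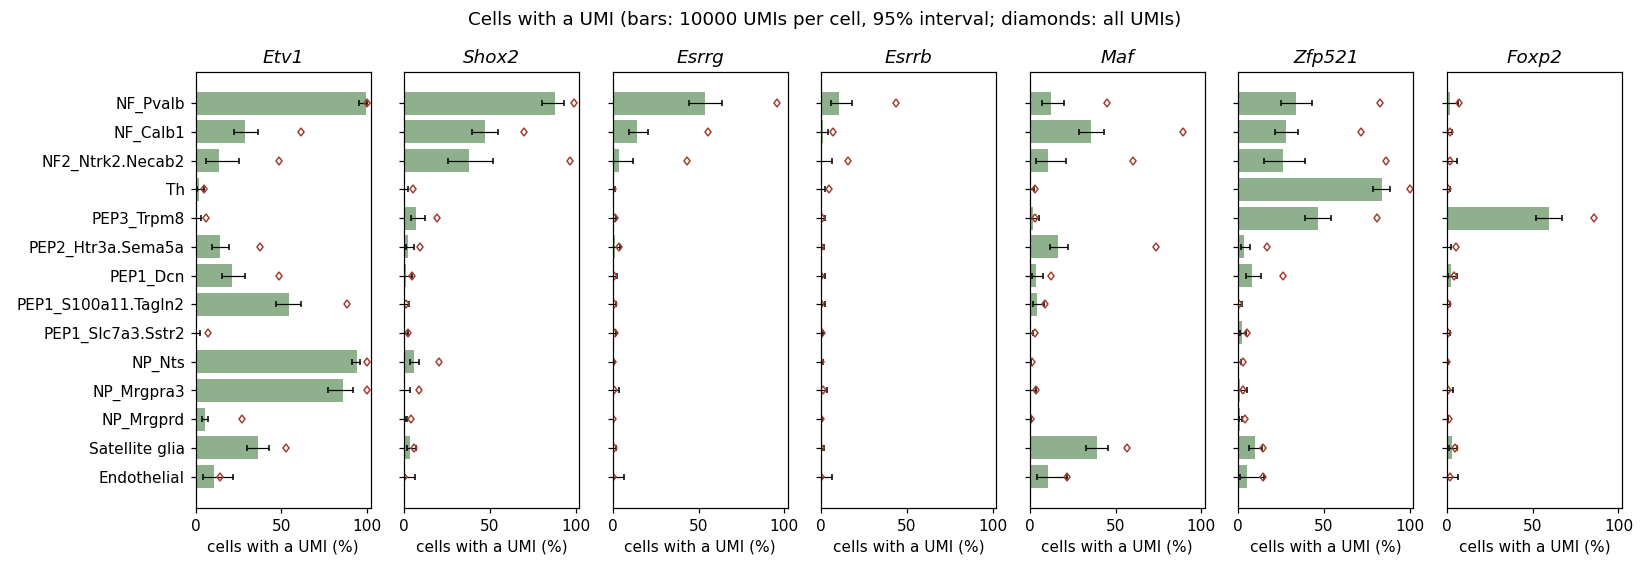
Share of cells with a UMI (x axes, %) for the 7 members in the 14 types (y axis). Bars are cells thinned to 10000 UMIs with 95% Clopper-Pearson intervals over the pooled cells of 5 libraries, and diamonds are shares at full depth; for Foxp2 the PEP3_Trpm8 bar stands at 59.5% and glia at 2.81%.

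How far members were found in the same cells of a type was counted next. In NF_Pvalb, 107 of 113 cells had UMIs of Shox2, Etv1 and Esrrg together at full depth, a count close to its ceiling, since each of the 3 was found in over 95% of the cells. Esrrb, the remaining gene that leads there, was found in 49 of the 113 cells. After thinning, Esrrg was in 56.6% of the 99 NF_Pvalb cells with Shox2 and in 35.7% of those without, and Esrrb in 7 of 61 cells with Esrrg. Maf was found at full depth in 51 of these 113 cells, and Zfp521 in 93. In NF_Calb1, where 161 of 180 cells had Maf and 126 had Shox2, 112 had both, so that Shox2 was in 69.6% of cells with Maf and 73.7% of those without. By contrast, Etv1 was in 64.6% of NF_Calb1 cells with Maf and 31.6% without, and after thinning in 43.8% and 20.7%. In PEP3_Trpm8, 122 of 168 cells had both Zfp521 and Foxp2 at full depth, and 10 had neither. After thinning, Foxp2 was in 59.0% of PEP3_Trpm8 cells with Zfp521 and 60% of those without. Cells of 1 library share their source, no doublet caller was run, and these counts are descriptions without a test.

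Because no Shox2 UMI was found in a part of the NF_Calb1 cells, the type was split into cells with and without a Shox2 UMI, a division chosen after its values were seen and so given without a test. The split gave 126 cells with (median 81138 UMIs) and 54 without (median 70347 UMIs), the latter with 4, 8, 17, 6 and 19 cells in libraries 1 to 5. Calb1, the name gene of the type, was at 144, 277, 255, 283 and 458 CPM in cells with Shox2 and at 0, 1.44, 5.11, 2.63 and 0.840 CPM in cells without, in libraries 1 to 5. Ntrk2 (TrkB) was at 156, 131, 188, 182 and 199 CPM with and 15.7, 17.3, 45.4, 5.25 and 12.6 CPM without. Ntrk3, which encodes the related receptor TrkC, was at 331, 255, 153, 189 and 61.2 CPM with and 579, 783, 786, 641 and 759 CPM without. For these 3 genes the groups of libraries did not overlap, Calb1 and Ntrk2 being high and Ntrk3 low in cells with Shox2. How many of all genes do not overlap was not counted, for this split or for that by Etv1 below. A lack of overlap therefore only describes the genes named. Of 21 touch and proprioceptor genes, 8 (38.1%) were higher with Shox2 in all 5 libraries and by at least 2-fold in the mean of CPM + 1 on the log2 scale, where 474 of all 17266 genes (2.75%) were. In the other direction, 1 (Ntrk3) was lower, beside 1.85% of all genes, and the median log2 difference was 0.19 over the list and 0.01 over all genes. Gfra2, a co-receptor of Ret, was at 20.5 ± 11.9 CPM with and 0.584 ± 0.610 CPM without Shox2, Pvalb at 184 ± 106 CPM with and 41.5 ± 21.3 CPM without, and Spp1, which encodes osteopontin, at 108 ± 27.9 CPM with and 28.7 ± 24.2 CPM without. The ranges of Pvalb overlapped, while those of Gfra2 and Spp1 did not. Piezo2, the channel of touch transduction, was in turn lower in cells with Shox2 in 5 of 5 libraries, at 298 ± 32.6 CPM with and 463 ± 93.3 CPM without.

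Of the other members, Zfp521 was at 35.0 ± 10.4 CPM with and 16.1 ± 6.46 CPM without Shox2, higher with it in 5 of 5 libraries, and Esrrg at 17.2 ± 3.72 CPM with and 7.73 ± 4.72 CPM without, also in 5 of 5. The ranges of both genes overlapped. Maf did not follow the split: it was at 56.1 ± 15.6 CPM with and 51.5 ± 10.8 CPM without, higher with Shox2 in 3 of 5 libraries. Etv1 was at 54.8 ± 30.2 CPM with and 22.8 ± 11.1 CPM without, higher with Shox2 in 4 of 5 libraries and with overlapping ranges. A split of the same cells by an Etv1 UMI (110 with, 70 without) gave 2 of the 21 genes higher and 2 lower by the same criterion, beside 0.568% and 0.573% of all genes. Shox2 was at 108 ± 21.9 CPM with and 50.1 ± 18.3 CPM without Etv1, higher with it in 5 of 5 libraries and without overlap. Gfra2, at 20.7 ± 9.14 CPM with and 3.28 ± 2.23 CPM without, and Spp1, at 128 ± 64.5 CPM with and 43.7 ± 22.8 CPM without, were higher with Etv1 in 5 of 5 libraries and without overlap, as they were with Shox2. Runx3, a runt-domain factor of TrkC neurons, was at 2.99 ± 3.76 CPM with and 75.8 ± 23.7 CPM without, lower with Etv1 in 5 of 5 libraries and without overlap, and Pvalb at 64.4 ± 47.6 CPM with and 237 ± 118 CPM without, also lower in 5 of 5 but with overlapping ranges. Ret, the receptor of glial-derived neurotrophic factors, was at 491 ± 113 CPM with and 258 ± 83.5 CPM without, higher with Etv1 in 5 of 5. Cells with a UMI of the splitting gene were also the deeper ones in both splits, and the part of depth in these differences was not tested.

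**Figure D3:**
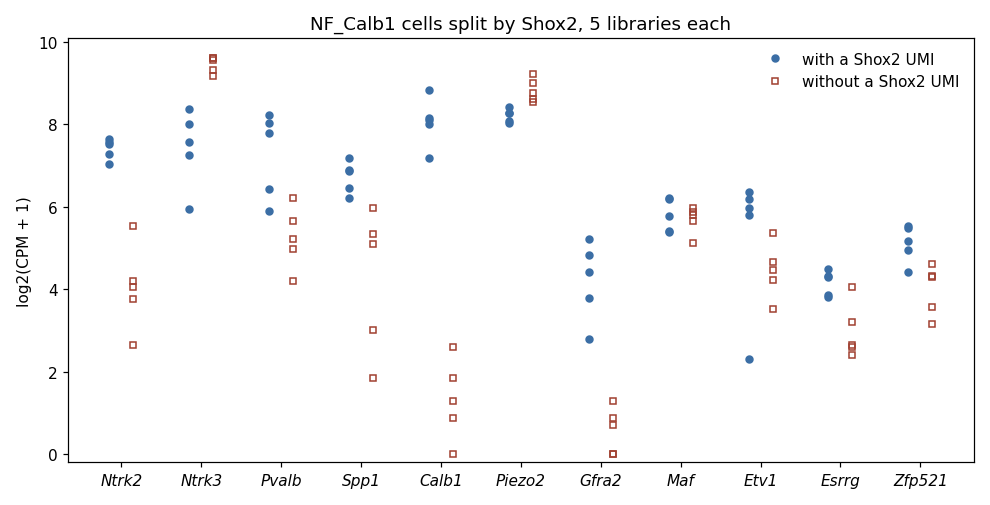
Levels in NF_Calb1 cells with (filled circles) and without (open squares) a Shox2 UMI, as log2(CPM + 1) on the y axis, for 11 genes on the x axis. Each symbol is 1 of 5 libraries; the symbols of Calb1 (mean 283 CPM with, 2.00 CPM without), Ntrk2, Gfra2 and Ntrk3 separate and those of Maf overlap.

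The genes most alike to each member were taken from 10926 genes by how closely their log2(CPM + 1) followed it over the means of the 14 types (Pearson's r), a description over points that share libraries and the clustering. The names below hold for this measure: by Spearman correlation, 2 of the 3 were kept for Etv1, 1 for Esrrg and Zfp521 and 0 for Maf, Shox2, Esrrb and Foxp2. For Esrrg they were St8sia5 (r = 0.995), Hapln4 (r = 0.955) and Sez6l (r = 0.951), all highest in NF_Pvalb and next in NF_Calb1. Shox2 was closest to Myadml2 (r = 0.946), Esrra (r = 0.941) and Fhod3 (r = 0.921), of which Esrra is the relative of Esrrg and Esrrb, at 104 CPM in NF_Pvalb and 57.1 CPM in NF_Calb1. Esrrb was closest to D430041D05Rik (r = 0.954), Smpx (r = 0.935) and Wnt7a (r = 0.934), the last of these a Wnt ligand gene. Etv1 had looser neighbours in Tiam1 (r = 0.823), Jak1 (r = 0.780) and Galc (r = 0.763), where Jak1, a cytokine receptor kinase, was highest in NP_Nts. Maf was closest to Atp6v0a2 (r = 0.954), Syde1 (r = 0.930) and Nfia (r = 0.922), the first being at 37.0 CPM in NF_Calb1 and 35.5 CPM in satellite glia. Zfp521 was closest to Osbpl1a (r = 0.891), Mcam (r = 0.884) and Oxa1l (r = 0.875), and Foxp2 to Cpxm2 (r = 0.948), Pnoc (r = 0.943) and Qrfpr (r = 0.929), of which Pnoc encodes the precursor of nociceptin. Pnoc held 65.3 CPM in PEP3_Trpm8 and at most 0.167 CPM elsewhere. Among the members themselves, the highest correlations over the 14 types were 0.919 for Shox2 with Esrrg and 0.909 for Esrrg with Esrrb, and the lowest -0.334 for Etv1 with Zfp521.

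A list of 21 genes of touch and proprioception (receptors, channels, transmitter and calcium-binding genes) was read beside the members in the same tests. It holds the genes that name these types (Pvalb, Calb1, Ntrk2, Necab2 and Th) and other genes used above as their markers. Its counts of calls therefore partly restate the type names. In NF_Pvalb, 8 of 18 tested were called, namely Nefh, Pvalb, Runx3, Whrn, Spp1, Slc17a7, Kcnc1 and Ntrk3, beside 12.4% of all genes, with a median log2 fold change of -0.36 over the list and -0.07 over all genes. NF_Calb1 had 7 of 19 (background 13.4%; median 0.73, all genes -0.03), NF2_Ntrk2.Necab2 7 of 19 (background 7.71%; median 0.18, all genes -0.07) and Th 8 of 18 (background 5.93%; median -0.30, all genes 0.01). Slc17a7, the vesicular glutamate transporter VGLUT1, and Kcnc1, a fast potassium channel, were called in all 3 neurofilament types, as Shox2 was. Slc17a7 was highest in NF_Pvalb, at 489 ± 128 CPM, and Kcnc1 likewise, at 286 ± 34.7 CPM. Kcnc1 was not confined to the neurofilament types: PEP3_Trpm8 came next at 91.6 ± 13.3 CPM, above NF_Calb1 (77.1 CPM) and NF2_Ntrk2.Necab2 (72.0 CPM). Whrn, a scaffold protein of mechanosensory cells, was at 122 ± 29.2 CPM in NF_Pvalb and at most 12.7 CPM elsewhere. In Th, the list's calls were Slc17a8, Gfra2, Cacna1h, Piezo2, Ret, Fam19a4, Th and Necab2, of which Slc17a8 (VGLUT3) was at 77.5 ± 9.40 CPM and Fam19a4 (Tafa4) at 561 ± 28.4 CPM. PEP3_Trpm8, where Foxp2 and Zfp521 were called, had 4 of 18, Cacna1h, Calb1, Kcnc1 and Necab2, beside 5.32% of all genes and a median of -1.35 and -0.01 over all genes.

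Relatives of the members were in part placed elsewhere. Of the MAF family, Maff (527 ± 191 CPM) and Mafk (159 ± 21.4 CPM) were highest in endothelial cells and were called there, as was Foxp1 (210.4 ± 57.5 CPM). All 3 were also called in satellite glia, and Mafk in NP_Nts and PEP1_Slc7a3.Sstr2. Esrra, the broadly expressed oestrogen-related receptor, was called in NF_Pvalb, NF_Calb1 and NF2_Ntrk2.Necab2, the same 3 types as Shox2, at 104 ± 14.2 CPM, 57.1 ± 11.1 CPM and 53.4 ± 14.4 CPM. Zfp423, the relative of Zfp521, was called in those 3 types too, at 39.6, 43.5 and 30.1 CPM, and was at 13.4 CPM in Th, where Zfp521 was highest. Etv5, of the same ETS group as Etv1, was called in NF_Calb1, NF2_Ntrk2.Necab2, PEP1_Dcn and PEP2_Htr3a.Sema5a, and was at 1.72 CPM in NF_Pvalb, where Etv1 was highest. The joint fit gave Etv5 a log2 difference of -5.75 (SE 0.332, adjusted p = 4.40e-24) for NF_Pvalb against NF_Calb1 by edgeR, the reverse of Etv1. Foxp4 was called in 4 types, NP_Nts, NP_Mrgpra3, PEP1_S100a11.Tagln2 and PEP3_Trpm8, and was highest in NP_Nts (16.4 CPM), while PEP3_Trpm8, where Foxp2 led, held 9.77 CPM.

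Promoter windows of 300 bases, from RefSeq on GRCm38.p6, were found for 4 members that lead in NF_Pvalb: Etv1 (2 windows), Shox2 (1), Esrrg (4) and Esrrb (2). They are shown because these 4 genes share their leading type, and the windows were searched on both strands for AAGGTCA, a sequence bound by oestrogen-related receptors, TGCTGAC, bound by MAF factors, and ACCGGAAGT, bound by ETS factors of the PEA3 group. Over 32851 windows of the same length, these letters were found in 4.72%, 4.67% and 1.1%. The 9 windows of the members held 1 match, TGCTGAC in the Etv1 window at chr12:38783461-38783760, in capitals. A match or its lack describes these letters in these windows and says nothing of binding. The windows printed are, for Etv1, chr12:38783461-38783760 (plus strand), for Shox2, chr3:66981722-66982021 (minus strand), for Esrrg, the first of 4, chr1:187608756-187609055 (plus strand), and for Esrrb, the first of 2, chr12:86360867-86361166 (plus strand), each 5′ to 3′ along the gene.
Etv1: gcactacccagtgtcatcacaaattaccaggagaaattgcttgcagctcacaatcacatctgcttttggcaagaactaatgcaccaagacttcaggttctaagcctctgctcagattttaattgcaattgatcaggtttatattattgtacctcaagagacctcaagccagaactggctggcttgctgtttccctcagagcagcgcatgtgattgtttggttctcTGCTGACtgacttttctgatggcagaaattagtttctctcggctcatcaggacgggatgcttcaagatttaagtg
Shox2: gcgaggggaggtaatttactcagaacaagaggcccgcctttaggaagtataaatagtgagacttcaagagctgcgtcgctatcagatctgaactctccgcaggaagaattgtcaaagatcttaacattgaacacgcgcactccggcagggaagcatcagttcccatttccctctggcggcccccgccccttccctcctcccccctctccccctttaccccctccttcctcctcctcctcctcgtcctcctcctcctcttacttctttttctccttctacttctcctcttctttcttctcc
Esrrg: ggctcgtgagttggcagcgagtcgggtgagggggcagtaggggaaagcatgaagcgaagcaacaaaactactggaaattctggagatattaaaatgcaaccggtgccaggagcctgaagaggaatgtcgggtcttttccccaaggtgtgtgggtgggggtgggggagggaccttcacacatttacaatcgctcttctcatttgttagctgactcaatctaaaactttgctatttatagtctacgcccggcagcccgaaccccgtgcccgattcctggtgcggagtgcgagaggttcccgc
Esrrb: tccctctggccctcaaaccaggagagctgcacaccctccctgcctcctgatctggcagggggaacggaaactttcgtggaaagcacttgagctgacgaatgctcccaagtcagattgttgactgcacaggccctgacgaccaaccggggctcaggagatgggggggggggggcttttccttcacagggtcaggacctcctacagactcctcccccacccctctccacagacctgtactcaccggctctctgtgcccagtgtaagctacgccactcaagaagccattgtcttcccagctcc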

How the data were processed

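The authors counted UMIs with Cell Ranger on mm10 and removed cells by gene number and mitochondrial share, then integrated, clustered and named the cells with Seurat; they deposited raw UMI counts per gene and cell, without normalization, and 1 type name per cell as text. Of the 17271 named features, 4 carry names of no mouse gene and were left out (143 UMIs, 6.37e-05% of all). No further cell was removed, and no doublet caller was run. Members and lists were chosen with earlier results of these data known. The genes named are the members, the 3 genes most alike to each, the lists and the cell type markers, with Rsrc1 added because it overlaps Shox2. Sums per type and library were compared by the quasi-likelihood test of edgeR 4.0.16, run in R 4.3.3 (filterByExpr, TMM, Benjamini-Hochberg over all genes tested), each type against the sum of all other cells of a library, and pairs of types in 1 fit of 70 sums, without a library term. The tests were also run on simulated data, from which no error rate is given here. Both sums of a library share that library: over types and libraries, the correlation of their deviations across genes lay between -0.0206 and 0.398, so a fit with the library as a block was made as an alternative. Levels, shares, intervals and correlations were computed in Python 3.11.15 with numpy 2.4.6, scipy 1.17.1 and pandas 2.3.3. Neighbours in an order of types were said to differ beyond their spread where the mean within-library difference of log2(CPM + 1) exceeded its SD. Limits for a count of 0 are those of 3 counts. The alternatives were DESeq2 1.42.0, RLE factors, no filter on low counts, the library block, neurons alone as the other cells, fits of 2 types alone, calls at an adjusted p under 0.05 or with no minimum share of cells, sums from fewer than 5 cells left out, other summaries of CPM, other depths of thinning, other measures of likeness and leaving out each library in turn.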

Additional observations from a re-analysis of the deposited data

Results flagged for a closer look

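In groups of 5 libraries, a value was marked where its gap to the nearest other library was over 0.71 of the whole range, which chance gives in about 1 of 20 groups; 29 combinations of a member and a type with at least 25% of cells positive were looked at, and 2 stood out. Shox2 in NF_Pvalb was 109 CPM in library 1, while the other 4 libraries lay between 252 and 283 CPM (ratio 0.819); that library holds 6 NF_Pvalb cells. Etv1 in PEP1_Dcn was 43.1 CPM in library 4, against 19.7 to 24.8 CPM in the others (ratio 0.784), from 28 cells. Without library 1, the mean of Shox2 in NF_Pvalb was 273 CPM in place of 240.2 CPM. The cause of either value was not tested.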

How the results depend on the processing

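The level of each member in its leading type and the step to the next type moved by less than 1 SD in all 42 alternative settings and all 70 leave-one-out values, although the step of Maf from NF_Calb1 to satellite glia, near 0, fell below 0 with TMM library sizes and without library 3, and ran from -0.01 to 0.24 without 1 library. Counts of genes and members called in a type stayed within 1.5 times of their value in 223 settings and 140 leave-one-out fits, and those of the pairs in 55 and 40; the log2 fold changes of members kept their direction and call in 132 settings and 83 leave-one-out fits, and the log2 differences in 160 and 113. With the replicate block, NF2_Ntrk2.Necab2 had 2 members called in place of 1, and the block changed no other count of members by over 1.5 times. In a fit of NF2_Ntrk2.Necab2 and Th alone, 3 members were called in place of 5, since Etv1 and Esrrg did not pass its filter. Leaving out 1 library moved the log2 fold change of Zfp521 in NF_Pvalb between 0.86 (without library 5) and 1.21. Differences with few UMIs or near 0 changed sign: Foxp2 in NF2_Ntrk2.Necab2 minus NF_Calb1 was -0.10, 0.60 with DESeq2 and -2.59 to 0.57 without 1 library; Foxp2 in NF2_Ntrk2.Necab2 minus Th was -2.43 to 1.31, Maf in NF_Pvalb minus NF2_Ntrk2.Necab2 -0.44 to 0.42, and Zfp521 in NF2_Ntrk2.Necab2 minus NF_Calb1 -0.14 to 0.25. The sign changed without library 1, 3 or 5 in the first, library 4 in the second, library 5 in the third and library 3 in the last. None of these was called, and the cause was not tested. Shares of cells follow depth by construction: with 5000 UMIs per cell they were 69.0% for Shox2, 89.4% for Etv1 and 35.4% for Esrrg in NF_Pvalb, 62.9% for Zfp521 in Th and 41.7% for Foxp2 in PEP3_Trpm8. Without thinning they were 99.1%, 100%, 95.6%, 100% and 85.7%, with 43.4% for Esrrb in NF_Pvalb and 89.4% for Maf in NF_Calb1; leaving out 1 library gave 98.9 to 100% for Etv1. The genes most alike depended on the measure: by Spearman correlation, 0 of the first 3 were shared for Maf, Shox2, Esrrb and Foxp2 and 1 of 3 for Esrrg and Zfp521, and over the 70 sums 1 of 3 for Esrrb. RLE factors moved the median log2 fold change of all genes by -0.27 in endothelial cells and by under 0.1 elsewhere. Sums of 3 to 6 cells limit NF2_Ntrk2.Necab2, NF_Pvalb, NP_Mrgpra3, PEP1_Dcn and endothelial cells in library 1. NF2_Ntrk2.Necab2 also rests on 6 cells in library 2 and 5 cells in library 3.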
